A study of Mus musculus with 2 samples.

Results

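Extracellular matrix and mesenchymal genes encode the collagens, glycoproteins and enzymes of the scaffold around cells, and the receptors and transcription factors of cells that build it. The 39 genes described here were chosen by function, from gene symbols, with the deposited peak calls and folds of this series already known, so their counts are a description and not a test. They are 39 of 21774 protein-coding genes in the RefSeq annotation of GRCm38.p6, the build also called mm10. The series mapped KMT2D, a histone H3 lysine 4 methyltransferase, in HT22, a line of immortalised cells from mouse hippocampus. A wild-type clone, grown to 70% confluency, gave 1 ChIP library made with an antibody to KMT2D and 1 input library made without antibody. Cells lacking the SET domain of KMT2D belong to the series but are not analysed here. There was no replicate, and the peak list holds no expression values, so the identity of the cells could not be checked from it.

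KMT2D is known for placing monomethylation on lysine 4 of histone H3, mostly at enhancers, which can lie far from the gene they act on. Matrix genes are known to be controlled both from their promoters and from distant enhancers, and many of them respond to transforming growth factor beta and to mechanical signals. Collagens are secreted as triple helices, trimmed and folded with the help of chaperones, and crosslinked outside the cell. Metalloproteinases break the matrix down, and TIMP proteins inhibit them.

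A peak is an interval where the authors' caller found more ChIP than background, and its summit is the highest point. Each summit was given to the protein-coding gene with the nearest end, start or finish, within 100 kb. Of 3706 peaks on the assembled chromosomes 3332 were given to a gene in this way. The list of 3738 peaks had a median fold over background of 4.45, with quartiles of 3.50 and 5.75, and a median of 31 ChIP fragments at the summit over a background of 6.05. Fold values are the authors' own, and the 95% intervals beside them are exact Poisson intervals of the ChIP fragments, with no error given to the background, and hold only the error of counting.

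Of the 39 genes, 21 received a peak (53.8%, Wilson 95% interval 38.6 to 68.4), and these 21 shared 40 peaks. Over all protein-coding genes the share was 10.8%. More than 1 peak was given to 13 members (33.3%, interval 20.6 to 49.0), against 2.87% of all protein-coding genes. A summit within 2 kb of an end was present at 5 members, 12.8% (5.60 to 26.7), and at 5.08% of all protein-coding genes. The 5 were Adamtsl4, Fbn1, Sparc, Lox and Itgb1. A summit within 100 kb, whichever gene was nearest, lay beside 25 members (64.1%) and beside 35.7% of all protein-coding genes. The 40 peaks ranged in fold from 2.63 to 12.2, with a median of 5.46 (exact interval of order statistics 4.35 to 6.27), where peaks given to all protein-coding genes had a median of 4.42. Their pileups ran from 15 to 88 ChIP fragments, with a median of 38.5, over backgrounds of 2.19 to 12.1.

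Members were longer than other genes and had more sequence around them for which theirs was the nearest end. Their median length was 38169 bp, against 17219 bp for all protein-coding genes. The median stretch nearest to a member was 127 kb, against 46.5 kb. Counted per Mb of such sequence, members had 7.13 peaks (Poisson 95% interval 5.09 to 9.71) and all protein-coding genes 1.97 (1.90 to 2.04). This count was added after the peaks had been placed, and peaks of the same gene are not independent.

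**Figure D1:**
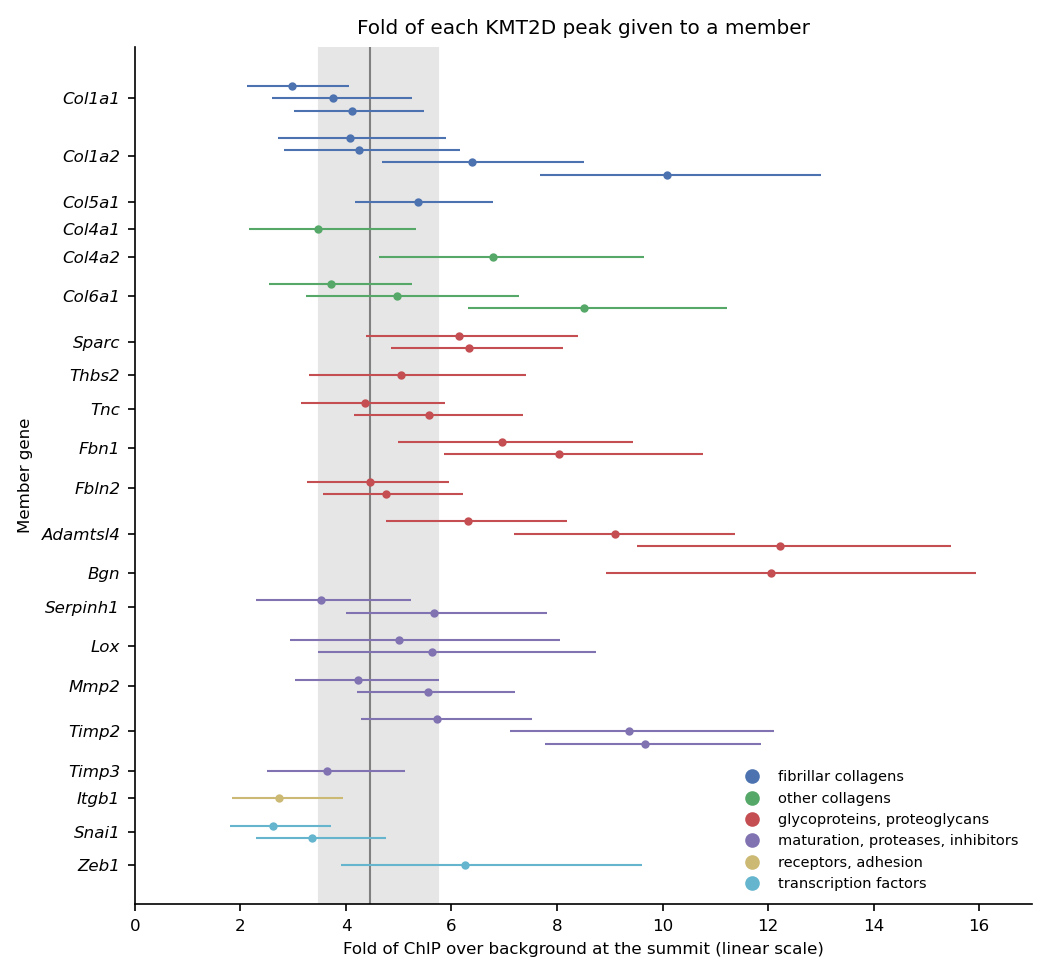
Fold of ChIP over background at the summit (linear horizontal axis) for each of the 40 peaks, in rows by gene and coloured by role, with bars for the exact Poisson 95% interval. The grey line and band mark the median of 4.45 and the quartiles of 3.50 and 5.75 over the whole list; the peaks of Adamtsl4 and Bgn reach highest, at 12.2 and 12.0.

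Among the 5 fibrillar collagen genes, which encode the rope-like collagens of skin, bone and vessel walls, 3 had peaks and 2 did not. The share was 60.0% (Wilson 95% interval 23.1 to 88.2), beside 10.8% of all protein-coding genes. Both chains of type I collagen were among the 3. Col1a2 had 4 peaks, all upstream of its start on chromosome 6. The nearest of these, from 4489393 to 4490312, was also the widest peak given to any member, at 920 bp. Its summit lay 15518 bp before the start with 57 ChIP fragments over a background of 4.76, a fold of 10.1 (95% interval 7.67 to 13.0). The other 3 summits lay much farther out, at 73282, 74506 and 86310 bp, with folds of 4.25, 4.08 and 6.38. These 3 lay nearer to the long non-coding RNA gene Gm33788, at 5518 to 7510 bp, than to Col1a2.

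Col1a1, the partner chain, had 3 weaker peaks on chromosome 11. Their summits lay outside the gene at 7097, 8057 and 19511 bp, with folds of 2.98, 3.76 and 4.11. All 3 folds were under the list median. Gm46293, which makes a long non-coding RNA, was 566 and 394 bp from the 2 nearer summits, and the pseudogene Gm22456 was 2976 bp from the farthest. Col5a1, a chain of the type V collagen that starts fibrils, had 1 peak 27661 bp upstream of its start, with 67 ChIP fragments and a fold of 5.37 (4.18 to 6.79). Col3a1 and Col5a2, which lie 24625 bp apart on chromosome 1, had no summit within 100 kb. The nearest summit to this pair was 334643 bp from Col5a2.

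Collagens of basement membranes and of fibril surfaces followed, with 3 of 5 genes given a peak (60.0%, 23.1 to 88.2), beside 10.8% of all protein-coding genes. None was at an end (upper limit 43.4%, beside 5.08% of all protein-coding genes). Col6a1, a chain of the beaded filaments of type VI collagen, had 3 peaks on chromosome 10. A pair lay upstream of its start at 4432 and 6872 bp with folds of 3.71 and 4.96. The third had the highest fold of the 3, 8.51 (6.32 to 11.2), with 48 ChIP fragments over 4.76, and lay in the stretch between Col6a1 and Col6a2. Its summit was 39630 bp from the finish of Col6a1 and 45532 bp from Col6a2, so the rule gave it to Col6a1, and it was the only summit within 100 kb of Col6a2. The long non-coding RNA gene Gm35608, at 8560 bp, was nearer than either.

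Col4a1 and Col4a2, the main basement membrane chains, start head to head on chromosome 8 with overlapping ends, and no summit lay within 2 kb of that shared start. Col4a2 had 1 peak inside the gene, 66686 bp before its finish, with 29 ChIP fragments and a fold of 6.78 (4.62 to 9.64). The single peak of Col4a1 lay 24913 bp beyond its finish with a fold of 3.47. Col12a1, a fibril-associated collagen, had no peak given to it. The only summit within 100 kb of it lay at 72095 bp and belonged by the rule to Tmem30a, 194 bp away.

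Glycoproteins and proteoglycans, the adhesive and organising molecules of the matrix, had the 2 peaks of highest fold among the members, at Adamtsl4 and Bgn. Of 12 genes 7 had a peak, and 3 of these had a summit within 2 kb of an end. Adamtsl4 encodes a secreted ADAMTS-like protein, without protease activity, that takes part in microfibril formation. Its highest peak, on chromosome 3 from 95674281 to 95674545, had 67 ChIP fragments over a background of 4.56 and a fold of 12.2 (9.51 to 15.5), above 99.4% of all peaks. The annotation places Adamtsl4 on the minus strand from 95676201 to 95687927, so this summit lay 1809 bp beyond the finish of the gene and not at its start. A second summit lay 592 bp beyond the finish with a fold of 6.30 (4.77 to 8.19). The third stood on the other side, 8561 bp upstream of the start, with 75 ChIP fragments and a fold of 9.10 (7.18 to 11.4). Past the finish the next protein-coding gene is Mcl1, to which 4 more summits were given, 8054 to 25267 bp from Adamtsl4, with folds of 2.81 to 4.85. The summit 1809 bp from Adamtsl4 had the highest fold of the 6 summits on that side of the gene.

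Bgn encodes biglycan, a small leucine-rich proteoglycan that binds collagen. It lies on the X chromosome and had 1 peak, from 73476596 to 73476948. Its summit stood 6857 bp upstream of the start with 47 ChIP fragments over a low background of 2.98, which gave a fold of 12.0 (8.92 to 15.9). The intervals of this peak and of the highest Adamtsl4 peak overlapped almost throughout. Decorin and lumican, related proteoglycans encoded by the neighbours Dcn and Lum, had no summit nearer than 607805 bp.

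Fbn1 encodes fibrillin, the core of microfibrils, and its start and finish lie 205892 bp apart on the minus strand of chromosome 2. Both of its peaks were nearer to the finish than to the start. One summit was inside the gene, 1729 bp before the finish, with 43 ChIP fragments over 4.48 and a fold of 8.03 (5.87 to 10.8). The other lay 6389 bp beyond the finish with a fold of 6.95 (4.99 to 9.44). No summit was closer than 42835 bp to the start of Fbn1, and that one, with a fold of 7.20, went to Cep152, 544 bp away.

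Sparc encodes a collagen-binding matrix glycoprotein and had 2 peaks of nearly equal fold around its start. The summit inside the gene lay 1811 bp after the start with 37 ChIP fragments and a fold of 6.14 (4.37 to 8.40). The upstream summit, 8273 bp before the start, had 60 ChIP fragments and a fold of 6.32 (4.85 to 8.11). Fbln2, which encodes fibulin, had a tight pair 561 bp apart, at 9687 and 10248 bp outside its start, with folds of 4.46 and 4.75. Tnc, which encodes tenascin, had another tight pair, 1809 bp apart, at 29482 and 31291 bp upstream with folds of 4.35 and 5.58. Thbs2, a thrombospondin gene, had 1 peak 56456 bp beyond its finish with a fold of 5.05. The fibronectin gene Fn1, together with Thbs1 and Postn, had no summit within 100 kb.

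**Figure D2:**
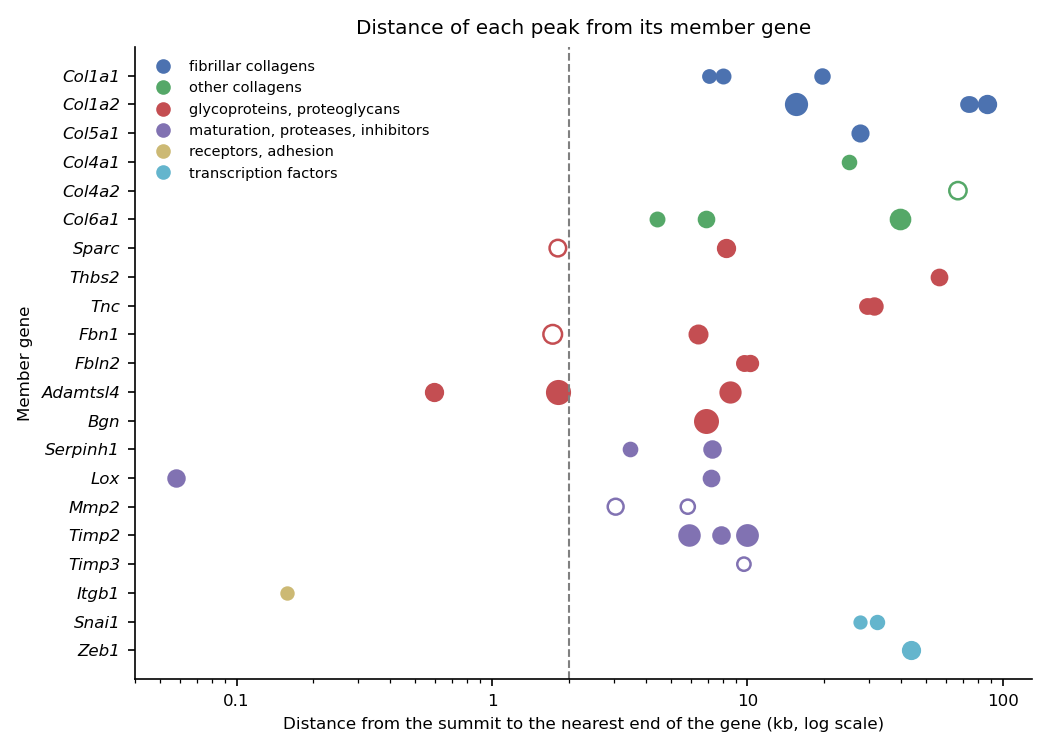
Distance from each summit to the nearest end of its gene (kb, log scale) in rows by gene, with larger circles for higher fold, filled circles outside the gene and open circles inside it. The dashed line marks 2 kb; 6 of 40 summits, of Sparc, Fbn1, Adamtsl4, Lox and Itgb1, lie to its left.

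Genes that mature, crosslink or degrade the matrix had peaks at 5 of 8 members (62.5%, 30.6 to 86.3), beside 10.8% of all protein-coding genes. The TIMP2 inhibitor gene had a cluster of 3 summits within 4053 bp, at 5891, 7894 and 9944 bp upstream of the start of Timp2 on chromosome 11. The outer pair were strong, with 56 and 88 ChIP fragments and folds of 9.36 (7.11 to 12.1) and 9.66 (7.77 to 11.9), and the middle one had a fold of 5.73 (4.28 to 7.52). The pileup of 88 was the highest of any peak given to a member. A further summit inside Timp2, 26680 bp from its nearest end, had 78 ChIP fragments and a fold of 6.69 (5.31 to 8.33). The rule gave it to Cep295nl, 4619 bp away. Timp3 had 1 peak inside the gene, 9689 bp before the finish, with a fold of 3.64. That summit also lay inside the gene Syn3. Timp1, on the X chromosome, had no summit within 181651 bp.

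Serpinh1 encodes HSP47, the collagen chaperone of the endoplasmic reticulum. Its 2 peaks stood upstream of the start, at 3459 bp with a fold of 3.53 (2.29 to 5.23) and at 7271 bp with a fold of 5.67 (3.99 to 7.82). Lox encodes the lysyl oxidase that crosslinks collagen and elastin, and its first summit lay only 58 bp outside an end of the gene. That peak had 18 ChIP fragments over a background of 2.37, a fold of 5.64 with a wide interval of 3.46 to 8.74. A second summit stood 7173 bp outside the same end with 15 ChIP fragments and a fold of 5.01 (2.94 to 8.06). Mmp2, a gelatinase gene, had 2 peaks inside it, 5841 and 3049 bp from the nearest end, with folds of 4.23 and 5.56. The membrane protease gene Mmp14 had no peak of its own, the nearest summit being 75286 bp away at Prmt5. Loxl2, a relative of Lox, had none within 169845 bp.

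Of 5 receptor and adhesion genes 1 received a peak (20%, Wilson 95% interval 3.62 to 62.4, beside 10.8% of all protein-coding genes). Itgb1 encodes the integrin beta chain shared by most collagen and fibronectin receptors. Its peak overlapped a promoter window, the 250 bases before and 50 after an annotated start, and no other peak did so at the 24 members for which such windows were found. Lox, with a summit 58 bp outside an end, is not among those 24. The summit lay 158 bp before the start with 27 ChIP fragments over a background of 9.22, and the fold of 2.74 (1.84 to 3.94) was higher than that of only 7.46% of the peaks in the list. Pdgfrb, a growth factor receptor gene of mesenchymal cells, had 2 summits within 100 kb, at 34680 and 51876 bp, with folds of 6.72 and 6.34, and both were given to Slc6a7. The hyaluronan receptor gene Cd44 had no summit nearer than 665193 bp, the N-cadherin gene Cdh2 none nearer than 1905899 bp, and Cdh11 none nearer than 2385302 bp.

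Transcription factors of the epithelial to mesenchymal transition had peaks at 2 of 4 genes, none within 2 kb of an end. Zeb1, which represses E-cadherin, had 1 peak 43608 bp outside the gene with 19 ChIP fragments over 2.19 and a fold of 6.27 (3.90 to 9.61). Snai1, which encodes Snail, had 2 weak peaks beyond its finish, at 27665 and 32131 bp, with folds of 2.63 and 3.36. Both lay nearer to the long non-coding RNA gene Gm31619. Snai2 and Twist1 had no summit within 100 kb.

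Sequence around annotated starts was examined next. RefSeq start windows of GRCm38.p6 were found for 24 of the 39 genes, as 27 windows, and 1 of the 27 overlapped a peak (3.70%), where 2.11% of all 32851 windows did. Itgb1 is printed because its window held the peak, Col1a2 and Timp2 because strong summits stood upstream of windows that held none. For Itgb1 (chr8:128685404-128685703, plus strand) the capitals mark the bases inside the peak, positions 23 to 250 counted from the first base printed, with the summit at position 93. For Col1a2 (chr6:4505368-4505667, plus strand) and Timp2 (chr11:118355362-118355661, minus strand) the capitals mark motif matches, which are GGGCGG in both and, in Timp2 also, CAGGTG. All 3 windows are rich in C and G, at 67.3% for Itgb1, 61.0% for Col1a2 and 68.7% for Timp2.

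Itgb1: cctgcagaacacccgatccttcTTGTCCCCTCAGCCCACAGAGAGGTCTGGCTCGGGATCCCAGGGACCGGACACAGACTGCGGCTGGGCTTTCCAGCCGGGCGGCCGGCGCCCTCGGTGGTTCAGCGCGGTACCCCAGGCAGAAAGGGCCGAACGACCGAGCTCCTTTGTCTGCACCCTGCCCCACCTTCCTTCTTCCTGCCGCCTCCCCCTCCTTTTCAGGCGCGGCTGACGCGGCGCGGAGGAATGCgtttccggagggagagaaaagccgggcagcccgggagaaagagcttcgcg
Col1a2: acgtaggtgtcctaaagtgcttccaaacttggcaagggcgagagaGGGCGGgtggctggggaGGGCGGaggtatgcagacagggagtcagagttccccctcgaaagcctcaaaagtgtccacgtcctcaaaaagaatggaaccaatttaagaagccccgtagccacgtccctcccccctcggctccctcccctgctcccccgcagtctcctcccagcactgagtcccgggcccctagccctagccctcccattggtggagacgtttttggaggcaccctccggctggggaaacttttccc
Timp2: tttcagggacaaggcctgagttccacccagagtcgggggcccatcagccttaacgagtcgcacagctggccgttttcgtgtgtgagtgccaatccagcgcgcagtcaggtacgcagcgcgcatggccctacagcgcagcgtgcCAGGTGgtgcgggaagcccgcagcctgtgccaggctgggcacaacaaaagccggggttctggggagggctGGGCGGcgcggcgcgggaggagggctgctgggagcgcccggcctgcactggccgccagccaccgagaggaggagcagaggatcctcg

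Motif letters were searched on both strands of these windows, each motif on its own, as a description of sequence and not of binding. GGGCGG, the core of sites for SP and Kruppel-like factors, was in 20 of 27 member windows (74.1%), at 18 genes. It was in 35.7% of all windows and 46.2% of the windows of protein-coding genes. Member windows had a median of 60.3% G and C and 13 CpG pairs, against 56.3% and 13 for protein-coding windows. GGAATG, the core of TEAD sites, was in 14.8% of member windows and 14.7% of all windows. In the Itgb1 window GGAATG starts at position 244 and GGGCGG at position 100, both within the peak. The summit of that peak is at position 93. CACCTG, an E-box bound by Snail and ZEB factors, was in 4 member windows (14.8%, against 20.2% of all). TATAAA was in 6 windows of 5 genes (22.2%, against 13.6% of all windows and 12.6% of protein-coding windows). The same Tnc site was counted in overlapping windows. The AP-1 site TGANTCA was in 1 member window, of Col6a1 (3.70%, against 7.81%). The cyclic AMP response element TGACGTCA and the CArG box of serum response factor were in no member window, and in 1.79% and 1.63% of all.

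The members' summits were then sorted by distance and side. Of the 40 summits 6 were within 2 kb of an end (15.0%, Wilson 95% interval 7.06 to 29.1), 21 from 2 to 20 kb (52.5%, 37.5 to 67.1) and 13 farther out (32.5%, 20.1 to 48.0). Among the peaks given to all protein-coding genes these shares were 30.2%, 38.4% and 31.5%. Inside the gene were 6 of the members' summits (15.0%), and 47.5% of all. The start window table gives a strand for 24 members, which had 32 of the peaks. Of these 32, 20 stood upstream of the start (62.5%, 45.3 to 77.1), 1 inside the gene near the start, 3 inside near the finish and 8 beyond the finish. For all 2640 such peaks the upstream share was 31.8% (30.1 to 33.6), and that of summits inside near the start 32.4%. The stretch from 2 to 20 kb upstream, a class set after seeing the positions, held 13 of the 32 (40.6%), at 8 genes, and 11.4% of all. The 8 genes were Col1a2, Col6a1, Adamtsl4, Bgn, Fbln2, Sparc, Serpinh1 and Timp2. No test was made of these differences, since peaks of 1 gene share their neighbourhood and the members were chosen with their peaks known.

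**Figure D3:**
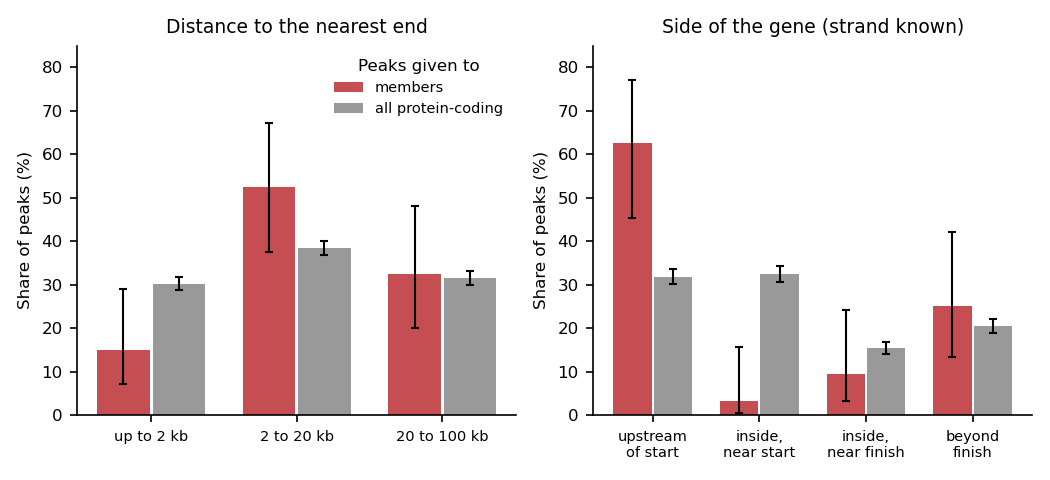
Share of peaks (%) by distance to the nearest gene end (left) and by side of the gene where its strand is known (right), for peaks given to members (red) and to all protein-coding genes (grey), with Wilson 95% intervals. Members have 15.0% of their summits within 2 kb of an end and 62.5% upstream of the start, against 30.2% and 31.8% for all.

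Some of the members' peaks stood closer to genes that make no protein. Of the 40 summits 15 were nearer to an end of a non-coding gene or pseudogene than to the member, among them all 3 of Col1a1, both of Mmp2 and both of Snai1. None lay within 500 bp of a tRNA gene. The same shares over the peaks of all protein-coding genes are not given here, so neither count can be called particular to the members. The 100 kb limit fell in a wide gap, with the Col1a2 summit at 86310 bp just inside it and the Fn1 summit at 234776 bp the next outside.

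Other genes of the matrix and of the mesenchymal state, 198 in 7 lists that hold no member, were placed by the same rule. A peak was given to 49 of them (24.7%, interval 19.3 to 31.2), and a summit lay within 2 kb of an end of 15 (7.58%, 4.64 to 12.1), beside 10.8% and 5.08% of all protein-coding genes. These 49 genes took 77 peaks with a median fold of 4.77, or 3.37 peaks per Mb of nearest sequence (2.66 to 4.21). Integrins had 9 of 25 genes with a peak, with summits at the ends of Itga10 (fold 7.18), Itgb2 (4.36) and Itga7 (3.996). Laminins, nidogens and perlecan had 5 of 15 (33.3%, 15.2 to 58.3), and the perlecan gene Hspg2 had the only summit at an end (2.87). Of 34 other collagens 7 had a peak (20.6%, 10.3 to 36.8) and none had a summit within 2 kb of an end (upper limit 10.2%). The highest fold among these was 9.45, at Col8a1, whose nearest summit stood 25795 bp away.

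Other metalloproteinases and their inhibitors had 4 of 38 genes with a peak (10.5%, interval 4.17 to 24.1). Adamts4 (6.21) and Adamts14 (4.52) had summits at an end (5.26% of the list). Both shares were near the 10.8% and 5.08% of all protein-coding genes. The ADAMTS-like and remaining lysyl oxidase genes had 2 of 9 (22.2%, 6.32 to 54.7), which were Loxl1 (4.77) and Loxl4 (4.29), both with summits at an end. Further glycoproteins and proteoglycans had 14 of 56, with Mfap4 (5.39), Pcolce (4.84), Omd (4.70) and Emilin1 (3.98) highest at an end. Further genes of the epithelial and mesenchymal states had 8 of 21 (38.1%, 20.8 to 59.1). Summits lay at the ends of Vim (7.33), the intermediate filament gene of mesenchymal cells, and S100a4 (4.95). Of 10 neuron markers 0 had a peak given (Wilson upper limit 27.8%), beside 10.8% of all protein-coding genes. That limit lies above 10.8%, so 10 genes are too few to set these markers apart. A summit within 100 kb, whichever gene was nearest, lay beside 3 of the 10 and beside 35.7% of all protein-coding genes. A peak list does not show whether the markers are expressed.

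**Figure D4:**
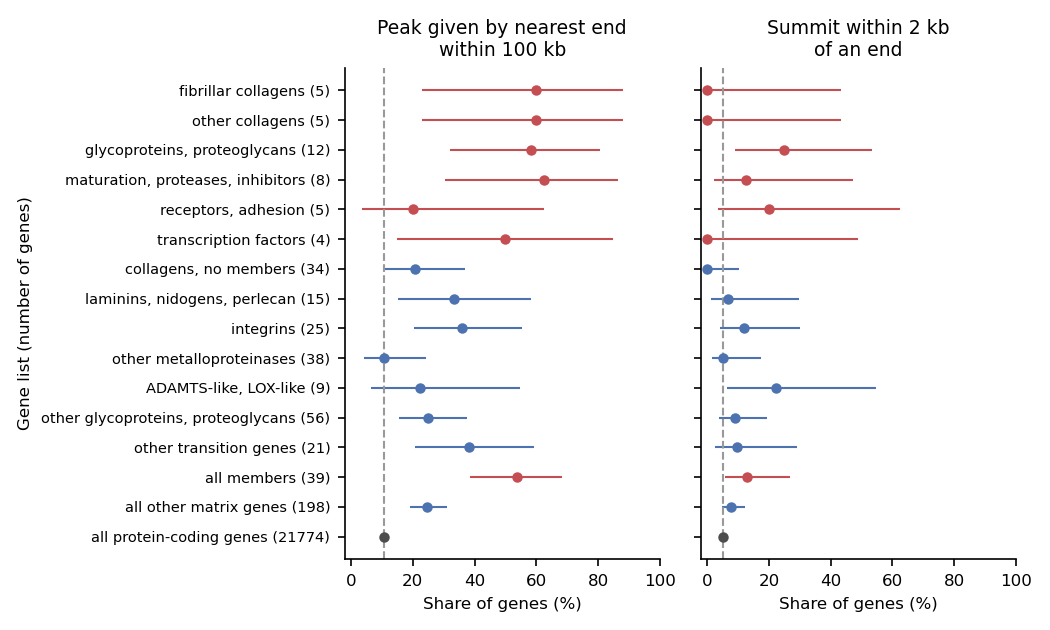
Share of genes (%) with a peak by nearest end within 100 kb (left) and with a summit within 2 kb of an end (right), for the member lists (red), lists of other matrix genes (blue) and all protein-coding genes (black, dashed line), with Wilson 95% intervals and the number of genes in brackets. Members have 53.8% and 12.8%, other matrix genes 24.7% and 7.58%, and all protein-coding genes 10.8% and 5.08%.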

How the data were processed

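The deposited file is 1 peak list that the authors made from 1 ChIP and 1 input library; the submitters' processing notes name Bowtie2, Picard, MACS2 and mm10, with settings not given in the sources used here. Each peak has a deposited fold, its ratio of ChIP to background, deposited −log10 values of p and q, and a deposited score that was not used. Library totals are not in it. ChIP fragments and background were solved from fold and p, taking the caller's formulas as (n + 1)/(b + 1) and a Poisson tail; 3683 of 3738 peaks, and all 40 given to members, matched p within 0.001. Summits were given to the 21774 protein-coding RefSeq genes of the main chromosomes with Python 3.11.15. All 49595 RefSeq genes of these chromosomes were used only to find nearer non-coding genes and pseudogenes. The solving of pileups and the search for the nearest gene were tested on simulated data. The simulated folds and p came from the same formulas, so they cannot check that the caller used them. Strand came from the start window table (17492 of 21774 protein-coding genes). The members, lists, motifs and windows were chosen with earlier results of these data known. Every member is accounted for; up to 4 genes of highest fold at an end are named per other list, and Col8a1 and neighbouring genes were chosen after their values were seen. Genomic sequence was used only for the start windows, so among the members' peaks only that of Itgb1 had its sequence examined. No test was made with 1 library of each kind.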

Additional observations from a re-analysis of the deposited data

How the results depend on the processing

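When only the more significant peaks were used (−log10 q no lower than its median), 25 peaks at 15 members stayed (15 of 39, against 5.64% of all protein-coding genes), with a median fold of 6.30 and 3 members (7.69%, against 1.72%) with a summit at an end. When the peaks were limited to folds no lower than the 75th percentile there were 15 peaks at 9 members (against 3.22%), a median fold of 8.03, which the threshold itself raises, and 3 members with a summit at an end (against 0.657%). When non-coding genes and pseudogenes could take peaks too, members kept 25 peaks at 15 genes (against 7.29%). A window of 1 kb left 3 members with a summit at an end (7.69%, against 3.94% of all protein-coding genes), and one of 5 kb gave 8 (20.5%, against 7.06%). Under the other alternatives run (limits of 50 kb and 20 kb, whole intervals, distance to the gene body or to the start, no peak with a background over 20 fragments, and, chosen after seeing the data, no Adamtsl4) the members with a peak numbered from 14 to 21. The shares of all protein-coding genes under these ran from 8.32% (20 kb) to 11.4% (start). Members counted were 39, but 38 without Adamtsl4 and 24 for the start. Without Adamtsl4 the median fold was 5.05 and 4 members had a summit at an end (10.5%, against 5.08%). Distances to the start could be taken for 24 members, of which 17 had a peak (against 11.4%). Pileups of 15 to 88 fragments leave wide intervals on single folds.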

Other observations

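The fibronectin gene Fn1 was the nearest protein-coding gene of 2 summits that lie outside the limit of 100 kb. They stand on chromosome 1, at 234776 and 240477 bp from Fn1, with 35 and 24 ChIP fragments and folds of 6.09 (Poisson 95% interval 4.29 to 8.40) and 4.04 (2.65 to 5.93). Each lay beside a long non-coding RNA gene, Gm8883 at 56 bp and Gm28818 at 78 bp.

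Axl, a receptor tyrosine kinase gene of mesenchymal cells outside the member list, had 1 peak 7063 bp from the gene with a fold of 10.3. Twist2, the relative of Twist1, had 1 at 15338 bp with a fold of 7.67. The E-cadherin gene Cdh1, an epithelial marker, had 3, none nearer than 16448 bp, with a highest fold of 3.44. Krt18, an epithelial keratin gene of the same list, had 1 at 13871 bp with a fold of 6.40. Thy1, a mesenchymal marker gene, had 1 at 97967 bp with a fold of 3.56. Vim (7.33) and S100a4 (4.95) belong to the same list, in which 8 of 21 genes had a peak. Axl, Twist2, Cdh1, Krt18 and Thy1 were chosen after their values were seen. Their folds therefore cannot show whether mesenchymal and epithelial genes differ.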
